A study of Drosophila melanogaster with 10 samples.

Results

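The heterochromatin of the left arm of chromosome 2 was described here through its short contacts, the pairs of different 10 kb bins of chr2L that both start at or above 22000975 in the dm3 build and lie less than 200 kb apart. Of the 40796 bin pairs of the series, 5671 lie on chr2L and 1521 met this rule, over 93 bins that start between 22006057 and 22966057. The 4 bins that start from 22796057 to 22826057, around the gene light, were left out, which removed 132 pairs. The contacts were measured by 5C in S2 cells, an embryonic Drosophila melanogaster cell line, in 9 libraries. In 2 libraries HP1a was depleted (HP1a RNAi) and in 2 libraries Su(var)3-9 was depleted (Su(var)3-9 RNAi), each for 3 days after transfection of double-stranded RNA. The controls were 2 libraries of cells given double-stranded RNA against GFP (mock RNAi) and 3 libraries of untreated wild-type cells (WT). All groups share the same cell line, and RNAi leaves part of the target protein in the cells, so none of them is a null state. The study checked both depletions by immunoblot. The files analysed here hold contact scores and no RNA or protein level, so the depletion of a given library was not examined here.

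Pericentromeric heterochromatin carries histone H3 methylated at lysine 9. Su(var)3-9 is a methyltransferase that deposits this mark, and HP1a binds it through its chromodomain and can dimerise, so both proteins are thought of as structural parts of compacted heterochromatin. Several genes of this region, among them light, are known to need the heterochromatic setting for normal expression.

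In 5C, a contact is counted where a forward and a reverse primer, each ending at an EcoRI site, anneal across the junction of ligated fragments and are joined. The sequences below are the parts of a forward and a reverse primer that match the fly genome, shown because every score in this report comes from such junctions. They are the middle entries of the chr2L lists of 60 forward and 58 reverse primers, and their positions in dm3 were not determined here. Capitals mark the part of the EcoRI site that each primer carries, which all 60 forward primers have at the 3′ end and all 58 reverse primers at the 5′ end.
Forward, chr2L: cctgcaggataaaaatgactgctgtgcGAA
Reverse, chr2L: TTCcagttagtttcctgccaccttatgatg
The genomic part was 30 bases long in every primer of both lists, and a ligated pair restores the whole site at the junction.

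The deposited value of a bin pair is a log2 ratio of observed over expected contacts, in which 0 stands for the frequency expected at that distance and positive scores for more frequent contacts. Entries of exactly 0 were treated as missing values. Of the 1521 pairs, 1476 had a score in all 9 libraries and 20 had none in any library. The scores were smoothed by the authors, so neighbouring pairs share values, and the library is the replicate in every test below. The files hold no read counts, and no counting error can be given. The study's read statistics list fewer reads with an EcoRI site for each depleted library than for each control library, so in the comparison of depleted with control libraries sequencing depth cannot be told apart from the depletions. Su(var)3-9 RNAi replicate 2 stood below all other libraries in the deposited scores of chr2L. On chr2R and chrX it did not, with medians of -0.96 and -0.64 for pairs under 200 kb, and Su(var)3-9 RNAi replicate 1 was the lowest library there (-1.43 and -1.26). The chr2L values of all libraries are therefore given with and without the median of chr2L in the same library subtracted (centred scores).

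Short contacts of the arm were not changed in one common direction on the deposited scale. The median member score was -0.40 and -0.13 in the HP1a RNAi libraries, -0.48 and -2.37 in the Su(var)3-9 RNAi libraries, -0.74 and -0.41 in the mock RNAi libraries, and -0.29, 0.17 and -0.17 in the WT libraries. Both HP1a RNAi values lay above both mock RNAi values, replicate 1 by very little and below all WT values, whereas the Su(var)3-9 RNAi libraries lay apart from each other. The HP1a RNAi mean exceeded that of mock RNAi by 0.31, with a two-sided exact permutation p of 0.333, the smallest that 2 libraries against 2 allow. This difference was 0.14 without mock RNAi replicate 1, 0.47 without mock RNAi replicate 2 and 0.18 without HP1a RNAi replicate 2. Su(var)3-9 RNAi differed from mock RNAi by -0.85 (exact permutation p = 0.667), and by 0.091 without its replicate 2. The depleted libraries together were lower than the controls by a mean difference of -0.56 (exact permutation p = 0.381, 0.476 after Benjamini-Hochberg adjustment over the 5 comparisons made for each measure), and by -0.050 without Su(var)3-9 RNAi replicate 2. Mock RNAi was itself lower than WT, by -0.48 (exact permutation p = 0.200, the smallest that 2 against 3 libraries allow). Scores above 0 made up 17.6% and 35.8% of member pairs in HP1a RNAi, 22.0% and 0% in Su(var)3-9 RNAi, 4.21% and 19.7% in mock RNAi and 16.1%, 68.6% and 32.6% in WT. No comparison of this share passed the threshold of 0.05, and its range within WT was wider than any difference between group means.

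Relative to the rest of the arm, short contacts were lower in both depletions. The centred median was 0.16 and 0.15 in HP1a RNAi, 0.0074 and 0.10 in Su(var)3-9 RNAi, 0.17 and 0.19 in mock RNAi, and 0.21, 0.24 and 0.20 in WT. All 4 depleted libraries lay below all 5 control libraries, the Su(var)3-9 RNAi libraries lowest. Both mock RNAi libraries also lay below all WT libraries, by a mean difference of -0.039 (exact permutation p = 0.200, the smallest possible). In size this exceeded the difference of HP1a RNAi minus mock RNAi, which was -0.025 (exact permutation p = 0.333). The mean was 0.10 ± 0.069 in depleted libraries and 0.20 ± 0.028 in controls (SD, n = 4 and 5), a difference of -0.099 (exact permutation p = 0.0159, the smallest possible, adjusted p = 0.0794, which misses 0.05). With means in place of medians the difference was -0.0032 (exact permutation p = 0.857), so this result holds for the typical pair and not for the average of all pairs.

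The contrast between short and long contacts of the same bins was also smaller after depletion. The median of member pairs minus the median of the 2757 pairs that lie 200 kb or more apart was 0.20 and 0.15 in HP1a RNAi, -0.025 and 0.071 in Su(var)3-9 RNAi, 0.26 and 0.31 in mock RNAi and 0.25, 0.31 and 0.28 in WT. Again no depleted library overlapped with a control library, while mock RNAi and WT did overlap. The mean was 0.098 ± 0.097 in depleted libraries and 0.28 ± 0.028 in controls (SD, n = 4 and 5), a difference of -0.18 (exact permutation p = 0.0159, adjusted p = 0.0794). Between -0.21 and -0.14 remained when any 1 library was left out, and means in place of medians gave -0.14. Against mock RNAi alone the difference was -0.11 for HP1a RNAi and -0.26 for Su(var)3-9 RNAi (exact permutation p = 0.333 for each). Against all 5 controls both depletions reached the smallest p that 2 libraries against 5 allow, an exact permutation p of 0.0952.

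**Figure D1:**
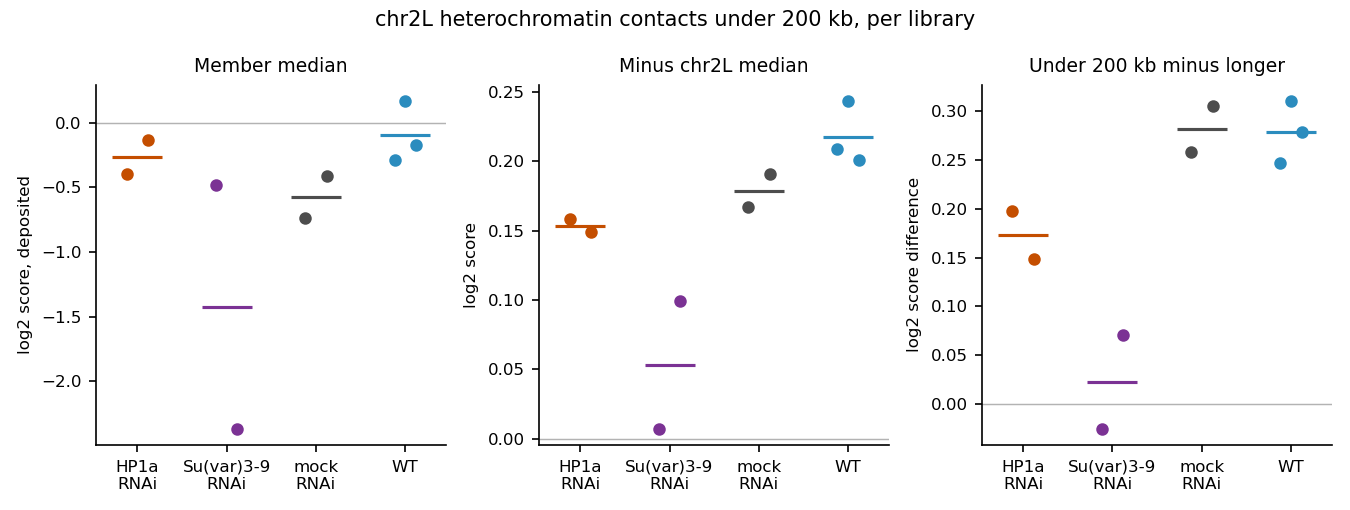
Each point is 1 library and each bar a group mean, for the member median as deposited, the member median minus the chr2L median, and the member median minus the median of pairs 200 kb or more apart, all on the log2 scale. The depleted libraries lie below all controls in the centre and right panels, and Su(var)3-9 RNAi replicate 2 lies at -2.37 in the left panel.

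The scores of the arm were more uneven within a depleted library. The SD over member pairs was 0.45 and 0.49 in HP1a RNAi, 0.65 and 0.60 in Su(var)3-9 RNAi, 0.38 and 0.42 in mock RNAi, and 0.34, 0.39 and 0.43 in WT. All 4 depleted libraries exceeded all 5 controls, with a mean difference of 0.15 (exact permutation p = 0.0159, adjusted p = 0.0794), a measure chosen after its values were seen. The width of the middle part of the scores, between the quartiles, differed by 0.14 with overlapping libraries (exact permutation p = 0.111). Fewer reads per library move with this measure too, and their part in it was not tested.

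The pattern of the scores along the arm was shared within each group. Over the member pairs, Pearson's r was 0.65 between the HP1a RNAi libraries, 0.75 between the Su(var)3-9 RNAi libraries, 0.79 between the mock RNAi libraries, and 0.62 to 0.73 among the WT libraries. HP1a RNAi libraries correlated with the controls at 0.45 to 0.63. Su(var)3-9 RNAi libraries correlated with mock RNAi at only 0.077 to 0.22 and with WT at 0.24 to 0.40, below the values within the control libraries, which were 0.59 to 0.82. The pairs behind these values share bins and smoothing, so they are given as descriptions.

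The nearest contacts had the highest centred scores in the controls and in HP1a RNAi, and were lower in Su(var)3-9 RNAi. Between bins 10 to 50 kb apart (436 pairs), the centred median was 0.37 and 0.29 in HP1a RNAi, 0.039 and 0.10 in Su(var)3-9 RNAi, 0.32 and 0.47 in mock RNAi, and 0.33, 0.41 and 0.35 in WT. The Su(var)3-9 RNAi libraries were thus the lowest of all 9 at these distances, and the HP1a RNAi libraries overlapped with the controls. At 60 to 100 kb (405 pairs) the mean was 0.13 in depleted libraries and 0.21 in controls. At 110 to 150 kb (381 pairs) it was 0.049 in depleted libraries and 0.14 in controls, and no depleted library overlapped with a control. At 160 to 190 kb (299 pairs) the means were 0.0080 in depleted libraries and 0.080 in controls, with wide overlap. The differences of depleted minus control libraries were -0.18, -0.084, -0.087 and -0.072 from the nearest to the farthest class, with exact permutation p of 0.0635, 0.0476, 0.0159 and 0.254 and adjusted p of 0.0847, 0.0847, 0.0635 and 0.254. On the deposited scale all 4 classes overlapped between depleted and control libraries (exact permutation p = 0.333 to 0.381).

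The drop from the nearest to the farthest class can be read within each library. It was 0.27 and 0.31 in HP1a RNAi, 0.17 and 0.011 in Su(var)3-9 RNAi, 0.27 and 0.46 in mock RNAi, and 0.20, 0.33 and 0.22 in WT. Both Su(var)3-9 RNAi libraries had a smaller drop than every control (difference of means -0.21, exact permutation p = 0.0952, the smallest possible with 2 against 5 libraries, chosen after the values were seen), and HP1a RNAi differed from the controls by -0.0076 (exact permutation p = 0.952). The limit of 200 kb fell on no step in the scores. The centred medians ranged over libraries from -0.044 to 0.14 for the 74 pairs 190 kb apart, just inside the limit, and from -0.072 to 0.16 for the 73 pairs 200 kb apart, just outside it.

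**Figure D2:**
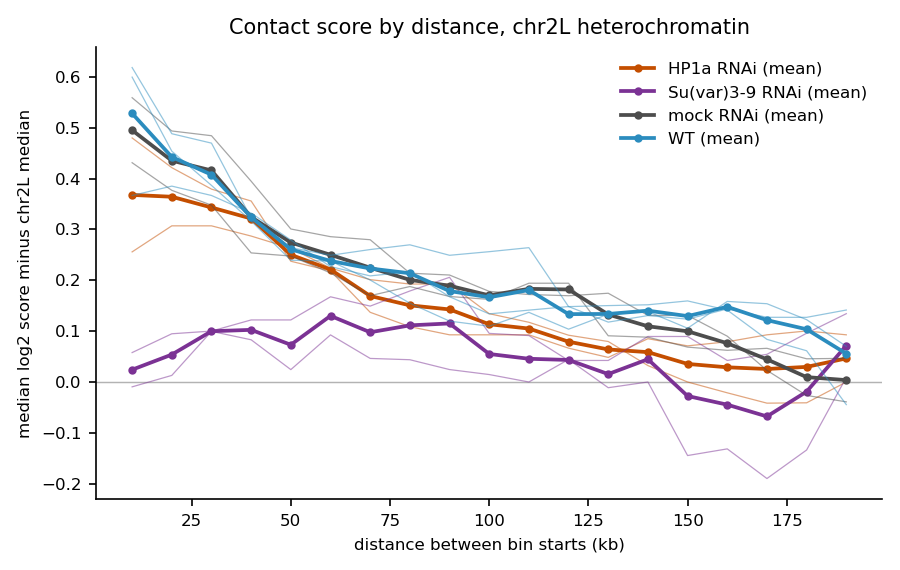
The median score of member pairs minus the chr2L median (log2) is drawn against the distance between bins in kb, with thin lines for libraries and thick lines for group means. Su(var)3-9 RNAi stays low at the nearest distances, where its libraries have 0.039 and 0.10 over 10 to 50 kb, HP1a RNAi lies at or below the controls up to 150 kb, and mock RNAi and WT run together over most distances.

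Along the arm, the centred scores of Su(var)3-9 RNAi were higher than those of mock RNAi in some places and lower in others. Member pairs were assigned by their midpoint to 10 segments of 100 kb, counted from the first bin. In segment 5, which starts at 22406057, the centred median was 0.55 and 0.85 in Su(var)3-9 RNAi, against 0.11 and 0.087 in mock RNAi and 0.33, 0.49 and 0.12 in WT. In segment 6 it was -0.38 and -0.0055 in Su(var)3-9 RNAi, against 0.33 and 0.29 in mock RNAi. In segment 7 the Su(var)3-9 RNAi libraries had 0.0074 and -0.033, and the mock RNAi libraries 0.38 and 0.56. On centred scores, a higher stretch thus lay directly before a lower one, and Su(var)3-9 RNAi and mock RNAi did not overlap in any of the 3 segments. The mean differences of Su(var)3-9 RNAi minus mock RNAi were 0.60, -0.50 and -0.48 (exact permutation p = 0.333 for each, the smallest possible). As deposited they were -0.13, -1.23 and -1.21, and the libraries overlapped in segments 5 and 7. With only the pairs that have both bins inside segment 5, its centred difference was -0.18.

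The HP1a RNAi libraries had centred medians of 0.18 and 0.29 in segment 5, 0.093 and 0.032 in segment 6, and 0.28 and 0.36 in segment 7, and differed from mock RNAi by 0.13, -0.25 and -0.15 without overlap (exact permutation p = 0.333 for each), in a comparison that shares the mock RNAi libraries with that of Su(var)3-9 RNAi. Against all 5 controls the difference was 0.0044 in segment 5 (exact permutation p = 0.857), -0.21 in segment 6 (exact permutation p = 0.0952, the smallest possible) and -0.10 in segment 7 (exact permutation p = 0.476). With both bins inside the segment, HP1a RNAi minus mock RNAi was -0.039 in segment 5 and 0.0078 in segment 6, and without mock RNAi replicate 2 the value of segment 7 was -0.061. Segment 1 lies at the distal end of the region. Its centred median was 0.65 and 0.63 in Su(var)3-9 RNAi and 0.68 and 0.26 in HP1a RNAi, against 0.44 and 0.61 in mock RNAi and 0.54, 0.67 and 0.83 in WT. It was the highest of the 10 segments in every control library, and the depleted libraries overlapped with the controls.

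In the comparison of depleted with control libraries, only segment 6 of the 10 was without overlap, with a mean of -0.064 in depleted libraries and 0.27 in controls (difference -0.33, exact permutation p = 0.0159, adjusted over the 10 segments 0.159). Segments of all arms were counted with at least 20 scored pairs in each library, so only part of chr3L entered. Of these 37 segments, 18.9% were below and 5.41% above in every depleted library. The 1 segment below and 0 above on chr2L are thus no more than these segments give as a whole. Su(var)3-9 RNAi was above mock RNAi in 3 segments and below it in 5, against 16.2% above and 54.1% below over all arms. At an exact permutation p under 0.05 stood 2 segments, 6 and 8 (segment 8 with a difference of -0.30 and p = 0.0317), and 5 segments when the borders were moved by 50 kb. The count fell to 1 without WT replicate 2, mock RNAi replicate 2, HP1a RNAi replicate 1 or either Su(var)3-9 RNAi library. The segment values depend on distance. When only pairs with both bins inside a segment were used, which leaves out pairs that span segments, segment 6 gave -0.082 for depleted minus control libraries (exact permutation p = 0.603). In segments 1 and 5 this setting gave 0.41 and -0.29 (exact permutation p = 0.0159 and 0.0317), against -0.062 and 0.24 with all pairs.

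**Figure D3:**
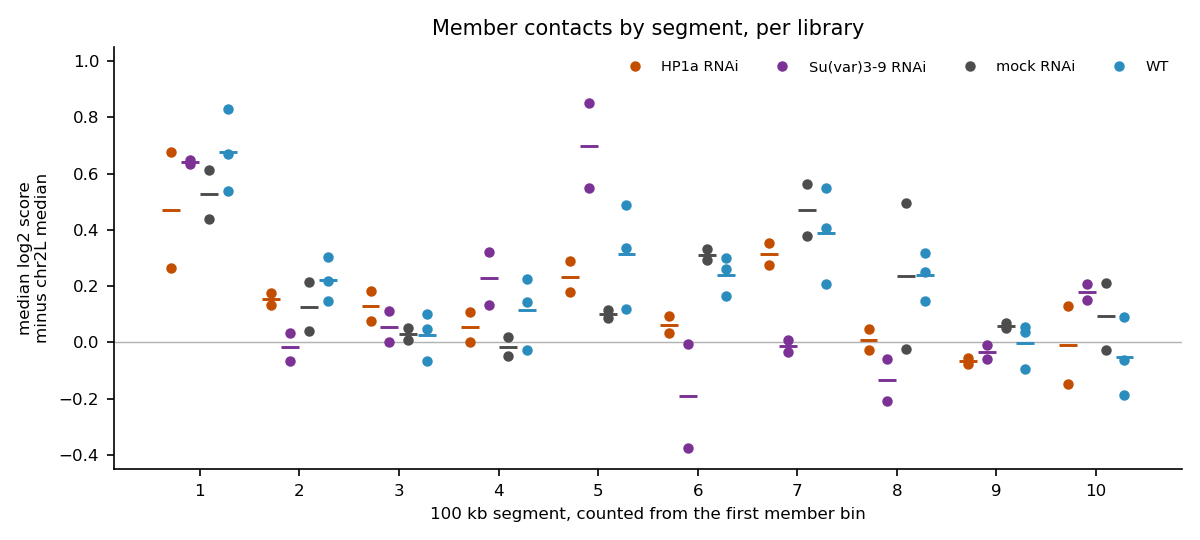
Each point is the median score of member pairs of 1 library in a 100 kb segment minus the chr2L median of that library (log2), and bars are group means. Among the 9 libraries, those of Su(var)3-9 RNAi stand highest in segment 5, at 0.55 and 0.85, and lowest in segments 2, 6, 7 and 8.

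At the level of single bins, the median over all member pairs of a bin showed where the arm was most and least connected. Among bins with at least 10 scored pairs in each library (90 bins), the highest WT means were found at the bins starting at 22046057, 22056057 and 22516057, with deposited means of 0.34, 0.32 and 0.41. The lowest were at 22306057, 22316057 and 22936057, with -0.59, -0.52 and -0.45 (SD over the 3 WT libraries 0.23 to 0.40 for the 6 bins). At 22046057 the centred bin median was 0.68 and 0.48 in HP1a RNAi, 1.10 and 0.84 in Su(var)3-9 RNAi, 0.43 and 0.55 in mock RNAi, and 0.61, 0.63 and 0.72 in WT. On centred scores, both Su(var)3-9 RNAi libraries were thus above every control at this already well connected bin. At 22306057 it was -0.32 and -0.56 in HP1a RNAi, -0.76 and -0.40 in Su(var)3-9 RNAi, -0.22 and -0.28 in mock RNAi, and -0.21, -0.18 and -0.43 in WT. The low point of the WT profile was kept in the depleted libraries and was on average lower in them. As deposited, Su(var)3-9 RNAi replicate 2 had -1.63 at 22046057, below every control.

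The lowest bin of WT, at 22306057, holds the start of CG17018, as the study's gene list places it in dm3. Start means here the lower coordinate of a gene, whatever its strand, which need not be the transcription start. The bin with the start of RpL5, a protein of the large ribosomal subunit, lies at 22416057 and had centred medians of 0.16 and 0.35 in HP1a RNAi, 0.74 and 0.89 in Su(var)3-9 RNAi, -0.11 and -0.17 in mock RNAi, and 0.31, 0.63 and 0.026 in WT. On centred scores, both depletions were above mock RNAi there, and Su(var)3-9 RNAi was above WT as well. The next bin, at 22426057, holds the start of CG17490 and had 0.15 and 0.19 in HP1a RNAi, 0.20 and 0.39 in Su(var)3-9 RNAi, 0.013 and 0.13 in mock RNAi and 0.37, 0.44 and 0.082 in WT, so that both depletions lay within the range of WT. The difference of Su(var)3-9 RNAi minus mock RNAi was 0.95 at the RpL5 bin and 0.22 at the CG17490 bin. At the bin of Clamp, a zinc-finger protein that binds GA-rich DNA and takes part in dosage compensation, at 22156057, HP1a RNAi had 0.16 and 0.023, Su(var)3-9 RNAi had 0.00071 and 0.038, mock RNAi had -0.017 and 0.23, and WT had 0.24, 0.12 and 0.082. At the bin of cta, a G protein alpha subunit needed for gastrulation, at 22866057, the differences from mock RNAi were -0.015 for HP1a RNAi and -0.13 for Su(var)3-9 RNAi. Both depletions overlapped with mock RNAi at Clamp, and HP1a RNAi did so at cta. There the Su(var)3-9 RNAi libraries had -0.18 and -0.057 and the mock RNAi libraries -0.024 and 0.050. As deposited, Su(var)3-9 RNAi replicate 2 was below both mock RNAi libraries at the RpL5 bin (-1.58 against -1.01 and -0.77). Its higher place there thus came with the subtraction of the arm median.

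The part of the profile that differed most in Su(var)3-9 RNAi ran over the bins just before and at RpL5, which were singled out after their values were seen. At 22386057 the centred median was 1.11 and 1.28 in Su(var)3-9 RNAi, against 0.016 and -0.0053 in mock RNAi and 0.28, 0.47 and 0.20 in WT, and HP1a RNAi had 0.37 and 0.35. At 22126057, in contrast, Su(var)3-9 RNAi had -0.65 and -0.38, mock RNAi 0.10 and 0.23, and HP1a RNAi 0.18 and 0.13. The Su(var)3-9 RNAi libraries thus had a peak and a trough where the mock RNAi values lay between -0.0053 and 0.23. At 22526057, Su(var)3-9 RNAi had 1.22 and 1.16, against 0.47 and 0.44 in mock RNAi, and HP1a RNAi replicate 2 had 1.20 whereas its replicate 1 had 0.42. As deposited, Su(var)3-9 RNAi replicate 2 was below both mock RNAi libraries at 22386057 (-1.19 against -0.89 and -0.60). The same held at 22526057 (-1.30 against -0.43 and -0.16).

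Over the 90 bins, both Su(var)3-9 RNAi libraries lay below both mock RNAi libraries in 43 bins and above them in 19. The same held for 47.3% (below) and 23.0% (above) of the 404 bins of all arms with at least 10 scored pairs in each library. These shares, which cover only part of chr3L, are close to the 47.8% and 21.1% of this region. HP1a RNAi lay below mock RNAi in 22 bins and above in 22, which is 24.4% each, against 36.6% and 23.8% over all arms. The shares of this region were thus close to or below those of all arms.

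**Figure D4:**
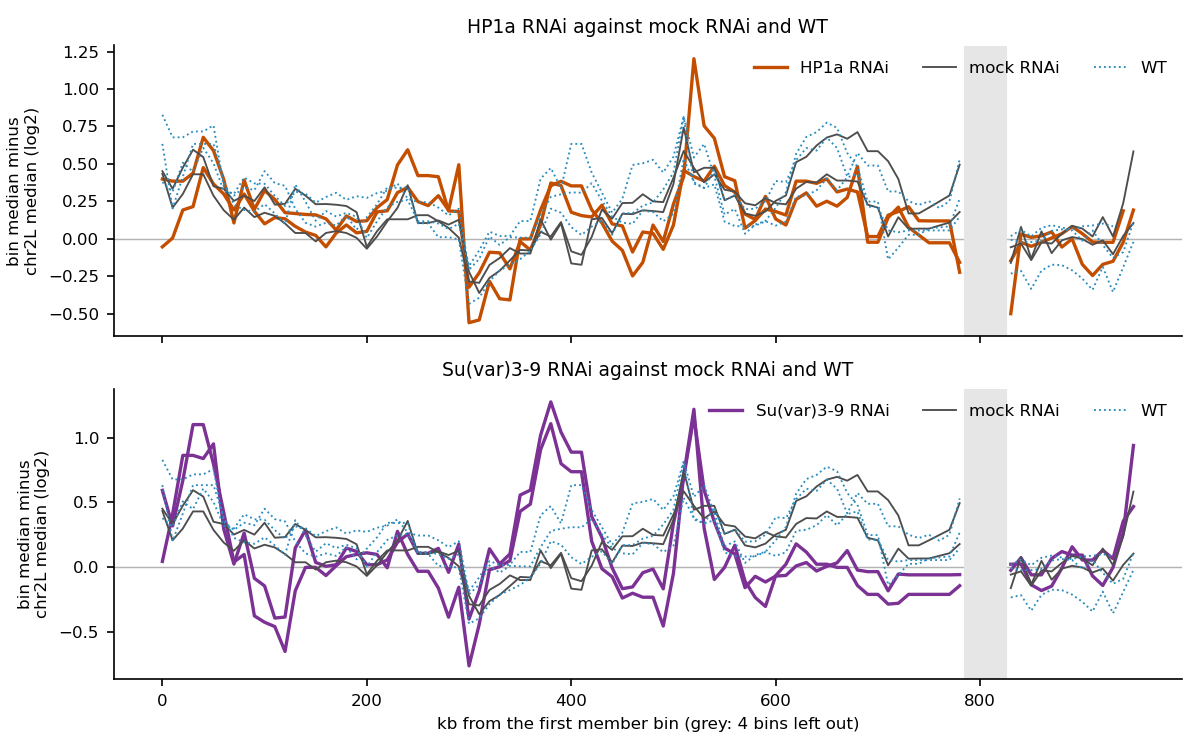
Lines give the median member score of each bin minus the chr2L median (log2) in every library, against the distance in kb from the first member bin, for HP1a RNAi (upper panel) and Su(var)3-9 RNAi (lower panel) with mock RNAi and WT. In the lower panel both Su(var)3-9 RNAi lines peak 380 kb from the first bin, at 1.11 and 1.28, and both run below mock RNAi throughout segment 7.

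Single bin pairs were tested with limma over the 23426 pairs of all arms that had a score in every library. These pairs lie at any distance, not only under 200 kb. Few chr3L pairs under 200 kb entered, because Su(var)3-9 RNAi replicate 2 had a score for only 5.46% of them. On the deposited scale, 0 of the 1476 member pairs passed an adjusted p of 0.05 in HP1a RNAi against mock RNAi. This held in either direction, and 0% of pairs over all arms passed. At an unadjusted limma p under 0.05, 10 member pairs were higher and 0 lower. Over all arms, 2372 of the 23426 pairs were higher and 136 lower, so this region held a smaller share of both. The Su(var)3-9 RNAi libraries enter the shared estimate of the spread. Fitted on HP1a RNAi and mock RNAi alone, 11 of 1485 member pairs were higher and 0 lower at an adjusted p under 0.05. In that fit, 1581 of 35307 pairs over all arms were higher and 139 lower. A count of 0 does not show that these contacts were unchanged. In Su(var)3-9 RNAi against mock RNAi, 17 member pairs were lower and 0 higher, which compares with 1.43% lower and 0.162% higher over all arms. The number rested on single libraries. Without any 1 of the WT libraries, 0 member pairs were called, and 0 over all arms. The median member difference was -0.87 in the full fit, -1.74 without Su(var)3-9 RNAi replicate 1 and 0.059 without replicate 2. Over all arms these medians were -0.35, -0.19 and -0.42. The members thus lay below all arms with replicate 2 in the fit and above them without it.

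The 3 lower pairs with the smallest adjusted p joined the bins at 22116057 and 22306057, at 22696057 and 22706057, and at 22696057 and 22716057. The first of them had scores of -2.74 and -2.79 in Su(var)3-9 RNAi and -0.75 and -0.37 in mock RNAi, a difference of -2.21 ± 0.31 (SE, limma adjusted p = 0.0281). The second, a contact of neighbouring bins, had -2.80 and -2.18 in Su(var)3-9 RNAi and 0.040 and 0.52 in mock RNAi, a difference of -2.77 ± 0.41 (limma adjusted p = 0.0281). The third had -2.51 and -3.25 in Su(var)3-9 RNAi and -0.62 and 0.20 in mock RNAi. It was the only one of the 3 that was still called after centring, with a difference of -1.95 (limma adjusted p = 0.0103), while the centred difference was -1.48 (limma adjusted p = 0.0669) for the first pair and -2.05 (limma adjusted p = 0.0586) for the second. Only 2 pairs were higher in both Su(var)3-9 RNAi libraries than in both mock RNAi libraries, and neither passed. They joined 22526057 with 22576057 (1.46 and -0.10 in Su(var)3-9 RNAi, -0.34 and -0.34 in mock RNAi, limma adjusted p = 0.267) and 22246057 with 22386057 (limma adjusted p = 0.330).

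Once each arm was centred in each library, many more pairs were called in Su(var)3-9 RNAi, in both directions. Of the 1476 member pairs, 153 were higher (10.4%) and 142 lower (9.62%) than in mock RNAi by limma, against 8.90% higher and 10.4% lower over all arms, so the share of called pairs was near that of the whole series. The split of calls was 0 higher to 17 lower as deposited and 153 to 142 when centred. Without WT replicate 1, 116 member pairs were higher and 73 lower (7.86% and 4.95%), against 1555 and 1774 of 23426 pairs over all arms. No other fit that kept 2 libraries in both groups compared called fewer. Without either mock RNAi library, which leaves 1 in that group, fewer pairs were called here and over all arms. The median member difference was then -0.16 without mock RNAi replicate 1 and -0.095 without replicate 2, against -0.14 in the full fit. The calls were not spread evenly along the arm. Segment 5 held 74 higher and 12 lower pairs of 190 tested, segment 6 held 9 higher and 56 lower of 190, and segment 7 held 0 higher and 22 lower of 189. They also divided by distance. Of the pairs 10 to 50 kb apart, 19 were higher and 64 lower (of 421), and of the pairs 160 to 190 kb apart, 69 were higher and 33 lower (of 290).

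A few bins took part in a large number of these calls. Those named here are extremes, picked after the values were seen. Calls per bin were not counted on the other arms, so whether such bins are common in the series was not tested. The bin at 22386057 was in 38 tested pairs, of which 31 were higher in Su(var)3-9 RNAi and 0 lower. The bins at 22396057, 22406057 and 22416057 were in 19, 18 and 19 higher pairs and 0 lower ones, each of 38. In contrast, the bin at 22126057 was in 13 lower pairs and 0 higher ones (of 31), and the bin at 22496057 in 17 lower and 5 higher ones (of 38). Neighbouring pairs share smoothed scores and pairs of 1 bin share that bin, so these counts are not independent.

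By the same rule applied to the centred scores, a step added after the data were seen, the 3 higher pairs with the smallest adjusted p joined the bins at 22406057 and 22416057 with 22576057, and 22386057 with 22546057. The first and second held identical scores in every library, 1.11 and -0.94 as deposited in Su(var)3-9 RNAi against -0.89 and -0.87 in mock RNAi, and differed by 1.69 ± 0.20 after centring (SE, limma adjusted p = 0.00364). The third had 1.26 and -0.78 in Su(var)3-9 RNAi against -0.63 and -0.40 in mock RNAi, with a centred difference of 1.48 ± 0.20 (limma adjusted p = 0.00428). As deposited, replicate 2 of Su(var)3-9 RNAi was thus below mock RNAi at all of them, and only the subtraction of the arm median placed it above. The 3 lower pairs joined 22526057 and 22506057 with 22686057, and 22496057 with 22676057. Their centred differences were -1.23, -1.53 and -1.52 (limma adjusted p = 0.00494 to 0.00524), and both Su(var)3-9 RNAi libraries were below both mock RNAi libraries as deposited too. In the third pair, Su(var)3-9 RNAi had -1.83 and -3.26 and mock RNAi -0.50 and -0.091.

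HP1a RNAi gave 0 called member pairs after centring as well, where limma called 0.209% of pairs higher and 0.320% lower over all arms. At an unadjusted limma p under 0.05, 54 of the 1476 member pairs were higher and 119 lower. Over all arms, 1888 of the 23426 pairs were higher and 2278 lower. This region thus held a smaller share in both directions, above all of higher pairs. Among the pairs that moved the same way in both libraries, the smallest adjusted p belonged to the pair of 22006057 with 22136057, which had deposited scores of -0.69 and -0.83 in HP1a RNAi and -0.14 and 0.32 in mock RNAi. Its centred difference was -1.18 ± 0.23 (SE, limma adjusted p = 0.0628). The contacts of neighbouring bins 22466057 with 22476057, and 22476057 with 22486057, had centred differences of -1.11 and -0.84 (limma adjusted p = 0.0734 and 0.0794). On the higher side, all 3 pairs joined the bin at 22386057, with 22546057, 22536057 and 22526057, by 0.92, 0.88 and 0.73 (limma adjusted p = 0.0695 to 0.0963). The bin at 22386057 was also the one with most higher pairs in Su(var)3-9 RNAi, in a comparison with the same mock RNAi libraries. On the deposited scale the smallest adjusted p of a member pair in HP1a RNAi was 0.387 (limma), for the pair of 22126057 with 22306057, which had -0.37 and 0.37 in HP1a RNAi against -1.35 and -0.85 in mock RNAi. The other higher pairs named by the rule were 22396057 with 22526057 and 22296057 with 22316057, and the lower ones were 22786057 with 22856057 and with 22866057 and the pair of 22006057 with 22136057 (limma adjusted p = 0.387 to 0.550).

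**Figure D5:**
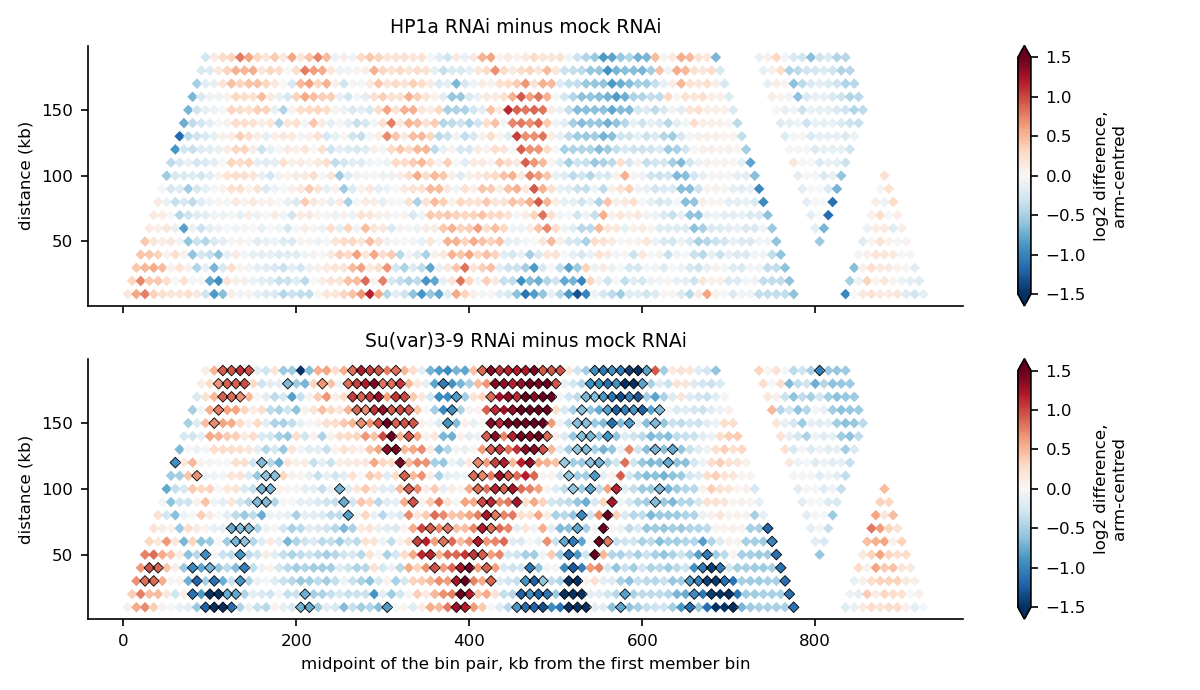
Each diamond is a member pair, placed by its midpoint in kb from the first bin and by the distance between its bins, and coloured by the difference from mock RNAi on centred log2 scores, for HP1a RNAi (upper panel) and Su(var)3-9 RNAi (lower panel). Black outlines mark pairs with a limma adjusted p under 0.05, 295 in the lower panel and 0 in the upper one.

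Nuclear matrix-associated regions (MARs), stretches of DNA that stay bound to the nuclear matrix after extraction, were compared as a feature of position. By the study's list, 28 MARs lie in 26 of the 93 bins. With the average of each distance removed from the scores, the median of the 104 pairs with a MAR in both bins minus that of the 835 pairs with none was 0.067 and -0.045 in HP1a RNAi, 0.20 and 0.028 in Su(var)3-9 RNAi, -0.18 and -0.13 in mock RNAi, and 0.046, 0.025 and -0.060 in WT. Both depletions lay above mock RNAi, and mock RNAi lay below WT. Against WT, both depletions overlapped, and Su(var)3-9 RNAi replicate 1 was above every WT library. The difference of depleted minus control libraries was 0.12 (exact permutation p = 0.111, adjusted p = 0.417).

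The lower centred score of short contacts was not shown to be particular to chr2L. Measured in the same way, pairs under 200 kb of chr2R (2413 pairs) had centred medians of 0.16 and 0.12 in HP1a RNAi, 0.11 and 0.0090 in Su(var)3-9 RNAi, 0.16 and 0.23 in mock RNAi, and 0.16, 0.13 and 0.22 in WT. The chr2L value minus the chr2R value of the same library differed between depleted and control libraries by -0.018 (exact permutation p = 0.714). For chr3L (3002 pairs), Su(var)3-9 RNAi replicate 2 was left out because most of its pairs had no score. The corresponding difference was -0.098 (exact permutation p = 0.143, smallest possible 0.0357). The chr3L medians were 0.28 and 0.079 in HP1a RNAi, 0.14 in Su(var)3-9 RNAi, 0.16 and 0.21 in mock RNAi, and 0.13, 0.14 and 0.18 in WT. On chrX they were 0.050 and 0.027, 0.077 and -0.016, 0.091 and 0.087, and 0.056, 0.013 and 0.057 in the same order of groups. Depleted and control libraries overlapped on both arms.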

How the data were processed

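5C contacts of S2 cells were analysed in 9 libraries. The scores of bin pairs that the authors deposited are log2 ratios of observed over expected contacts. They were made with my5C in dm3 from reads mapped with Bowtie2, binned at 10 kb and smoothed by the median. For chrX, which enters the comparisons with all arms, the paper gives bins of 5 kb. Both orders of a pair were averaged, and scores of 0 were treated as missing. Library medians entered exact permutation tests (two-sided), with Benjamini-Hochberg adjustment over 5 comparisons. limma 3.58.1 in R 4.3.3 was fitted over all 4 groups to every pair scored in 9 libraries and was tested on simulated data. Python 3.11.15 with numpy 2.4.6 and pandas 2.3.3 was used otherwise. Named pairs are, per depletion and direction, the 3 with the smallest adjusted p that moved alike in both libraries. Named bins are the 3 highest and 3 lowest in WT and those with the start (lower coordinate) of Clamp, CG17018, RpL5, CG17490 or cta. The members and lists were chosen with earlier results of these data known. The unprocessed control sample was not analysed here. p-values measure the spread between these libraries. The alternatives covered missing scores, close pairs, the light bins, means, centring, segments, a replicate block and single libraries left out.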

Additional observations from a re-analysis of the deposited data

Results flagged for a closer look

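Among the 4 depleted libraries, Su(var)3-9 RNAi replicate 2 was far from the others in the median member score, at -2.37, while the other 3 lay between -0.48 and -0.13. In segment 1, HP1a RNAi replicate 2 had a centred median of 0.26, far below the other depleted libraries, which lay between 0.63 and 0.68. In segment 9, WT replicate 3 had -0.093, while the other 4 control libraries lay between 0.038 and 0.069. These were the samples beyond Dixon's limit among 42 sets of 4 or 5 libraries, where chance alone flags about 1 set in 20.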

How the results depend on the processing

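Of 151 planned or added settings of the values that answer a comparison, leaving single libraries out aside, 138 were labelled unchanged. For differences, this means the same direction and the same side of 0.05 for the unadjusted exact permutation p. The smallest possible exact permutation p was 0.333 for 2 libraries against 2 and 0.200 for 2 against 3. These comparisons could not cross the threshold, so for them the tally speaks only of direction. Counts of segments, distance classes and called pairs were judged by their size, not by which ones they held or in which direction. The lower short-minus-long contrast of depleted libraries kept its direction and an unadjusted exact permutation p under 0.05 in every setting run. The lower centred median did so except with means in place of medians. Means gave -0.0032 for depleted minus control libraries and 0.036 for HP1a RNAi minus mock RNAi. After Benjamini-Hochberg adjustment, the exact permutation p of both results was 0.0794 in the main setting, which misses 0.05. With the 4 light bins, the short-minus-long difference of mock RNAi minus WT was -0.0099. The share of positive scores differed by -3.98 percentage points for HP1a RNAi minus mock RNAi when counted above the chr2L median, and by 2.13 for Su(var)3-9 RNAi minus mock RNAi from 30 kb on. The SD difference was 0.14 with the middle part of the scores. Segments moved by 50 kb gave 5 segments in place of 2, and centred scores 2 distance classes in place of 0. The cause of these changes was not tested.

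Using only pairs with both bins inside a segment, a setting with fewer and closer pairs, turned some signs. They turned for HP1a RNAi minus mock RNAi in segments 1, 2, 4, 5, 6 and 9 (0.49, -0.14, -0.35, -0.039, 0.0078 and 0.12). For Su(var)3-9 RNAi minus mock RNAi they turned in segments 3, 5 and 9 (-0.39, -0.18 and 0.19). For depleted minus control libraries they turned in segments 1, 3, 4, 5 and 9 (0.41, -0.061, -0.014, -0.29 and 0.25). Of these, segments 1 and 5 had an exact permutation p of 0.0159 and 0.032.

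Called member pairs numbered 11 in HP1a RNAi with only the 2 groups compared, all higher (0.741%). Over all arms, 1581 of 35307 pairs were then higher and 139 lower. In Su(var)3-9 RNAi they were 17 as deposited, 295 with centred scores, 0 with only the 2 groups compared and 10 with limma's trend and robust options. With only the 2 groups, 0 pairs were called over all arms too. The 10 were all lower (0.678%), against 229 lower and 12 higher of 23426 pairs over all arms. With the replicate block, 0 were called as deposited and 75 with centred scores, and HP1a RNAi gave 0 on both scales. The 75 were 56 higher and 19 lower (3.79% and 1.29%), against 678 and 667 of 23426 pairs over all arms. Each count of 0 with the replicate block was also 0 over all arms. The labels do not say that the numbers mark a shared culture or day, and the check of pairing gave no single sign: deviations of same-numbered Su(var)3-9 RNAi and mock RNAi libraries correlated at -0.34 over all arms as deposited, -0.027 over all arms when centred and 0.19 over the member pairs, and those of HP1a RNAi and mock RNAi at 0.017, -0.014 and -0.0015. The crossed pairing, chosen after seeing the data, called 15 member pairs in Su(var)3-9 RNAi, all lower (1.02%). Over all arms it called 182 lower and 4 higher of 23426 pairs.

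Leaving out 1 library gave -1.79 to 0.091 for the median score and -12.0 to 10.1 percentage points for the positive share of Su(var)3-9 RNAi minus mock RNAi, -15.4 to 0.69 for the positive share of depleted minus control libraries, -0.020 to 0.027 (short minus long) and -0.0061 to 0.038 (SD) for mock RNAi minus WT, 1 to 2 segments, 0 to 8 pairs in HP1a RNAi and 0 to 1215 in Su(var)3-9 RNAi. In single segments it gave -0.11 to 0.035 (segment 1, depleted minus control libraries), -0.26 to 0.15, -0.060 to 0.12, -0.48 to 0.034 and -0.24 to 0.036 (segments 1, 2, 8 and 10, HP1a RNAi minus mock RNAi), and -0.030 to 0.081 and -0.034 to 0.21 (segments 3 and 10, Su(var)3-9 RNAi minus mock RNAi). The files hold no read counts, so what depth limits could not be measured.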
